A study of Mus musculus with 6 samples.

Results

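Transcripts of 6 dual-specificity phosphatases that switch off MAP kinases were followed in mouse Th17 cultures grown with or without the ATP synthase inhibitor oligomycin. The genes, Dusp1, Dusp2, Dusp4, Dusp5, Dusp6 and Dusp10, were picked by symbol from the 10041 rows of the deposited expression table. Each was found in 1 row, and all 6 passed the filter on low values. Naive CD4 T cells were stimulated for 48 h with plate-bound anti-CD3e (10 µg/ml) plus anti-CD28 (1 µg/ml), and the Th17 cytokines were IL-23 at 10 ng/ml, IL-6 at 20 ng/ml and TGF-β1 at 2.5 ng/ml. Both groups received all of this. They differed in oligomycin (2.5 ng/ml) against its vehicle DMSO, and each was profiled by RNA-seq in 3 libraries. Strain, sex and age of the mice were not stated in the labels.

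With oligomycin, mRNA of Dusp6 rose 2.50-fold and mRNA of Dusp2 rose 1.43-fold. Dusp4, the most abundant of the 6 with DMSO, averaged 103 FPKM with DMSO and 70.8 FPKM with oligomycin, a difference that did not pass the test (adjusted p = 0.0568, limma). Dusp5, Dusp1 and Dusp10 did not pass either (adjusted p from 0.229 to 0.88). FPKM are fragment counts divided by transcript length and by the mapped fragments of the library, so levels are per length and relative to the other transcripts. In such bulk samples, fewer cells of a type and less RNA per cell cannot be told apart.

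MAP kinases such as ERK, JNK and p38 are switched on by phosphorylation of a threonine and a tyrosine in their activation loop. Dual-specificity phosphatases remove both phosphates. Many genes of this family are themselves induced by the kinases that their products inactivate, which makes them brakes of a negative feedback loop. DUSP1, DUSP2, DUSP4 and DUSP5 reside in the nucleus, DUSP6 and its relative DUSP7 in the cytosol with a preference for ERK, and DUSP10 and DUSP16 prefer JNK and p38. In T cells, the T cell receptor activates ERK through Ras, RAF and MEK, and CD28 adds to the activation of JNK.

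The FPKM sums of all rows ran from 1434030 to 1922230 with DMSO and from 1856860 to 2103400 with oligomycin. Without the 138 small RNA rows, which thus held most of the FPKM, they ran from 394872 to 467848 over all libraries. The sequencing depth behind these sums is unknown. Pairs of libraries correlated across the 9986 tested genes, whose values are not independent of each other, at r = 0.963 to 0.969 for DMSO, 0.940 to 0.962 for oligomycin and 0.890 to 0.937 across groups. All 6 markers of CD4 T cells (Cd3d, Cd3e, Cd3g, Cd4, Cd5 and Lck) were in the table, with summed levels of 867 to 1012 FPKM with DMSO and 846 to 1041 FPKM with oligomycin. All 6 Th17 markers were in it as well, and their sum, dominated by Il17f, was lower with oligomycin (301 to 475 FPKM, against 1695 to 1959 FPKM with DMSO). The table had no row for the 5 B cell, 8 myeloid, 4 dendritic and 4 erythroid markers looked for. Of 2 CD8 T cell and 3 NK cell markers it held Cd8b1 (2.41 to 3.30 FPKM over all libraries) and Klrd1 (12.8 to 34.6 FPKM with DMSO, 5.53 to 23.8 FPKM with oligomycin). The part of the Klrd1 and Th17 marker levels in the results below was not tested.

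In the limma test over all genes, 2 of the 6 phosphatase genes rose, 0 fell and 4 were not called at an adjusted p under 0.05. This share, 33.3%, is near the background, as 30.2% of the 9986 tested genes were called, 14.0% higher and 16.1% lower (1403 and 1610 genes). When the libraries were rescaled to the sum without small RNA rows, the calls over all genes split into 1891 higher and 1320 lower. The same 2 phosphatase genes had groups that did not overlap, against 47.3% of all tested genes. The median log2 change of the 6 genes was -0.05, and that of all tested genes was -0.0044. The count of called phosphatase genes was 1 without DMSO replicate 2, where Dusp2 was lost, and 3 without oligomycin replicate 1, where Dusp4 was gained. The titles number the samples 17, 42 and 43, each once per group, but do not say whether these are separate animals or cultures. The p-values come from a fit without pairing. They measure the spread between these samples, which may be technical.

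**Figure D1:**
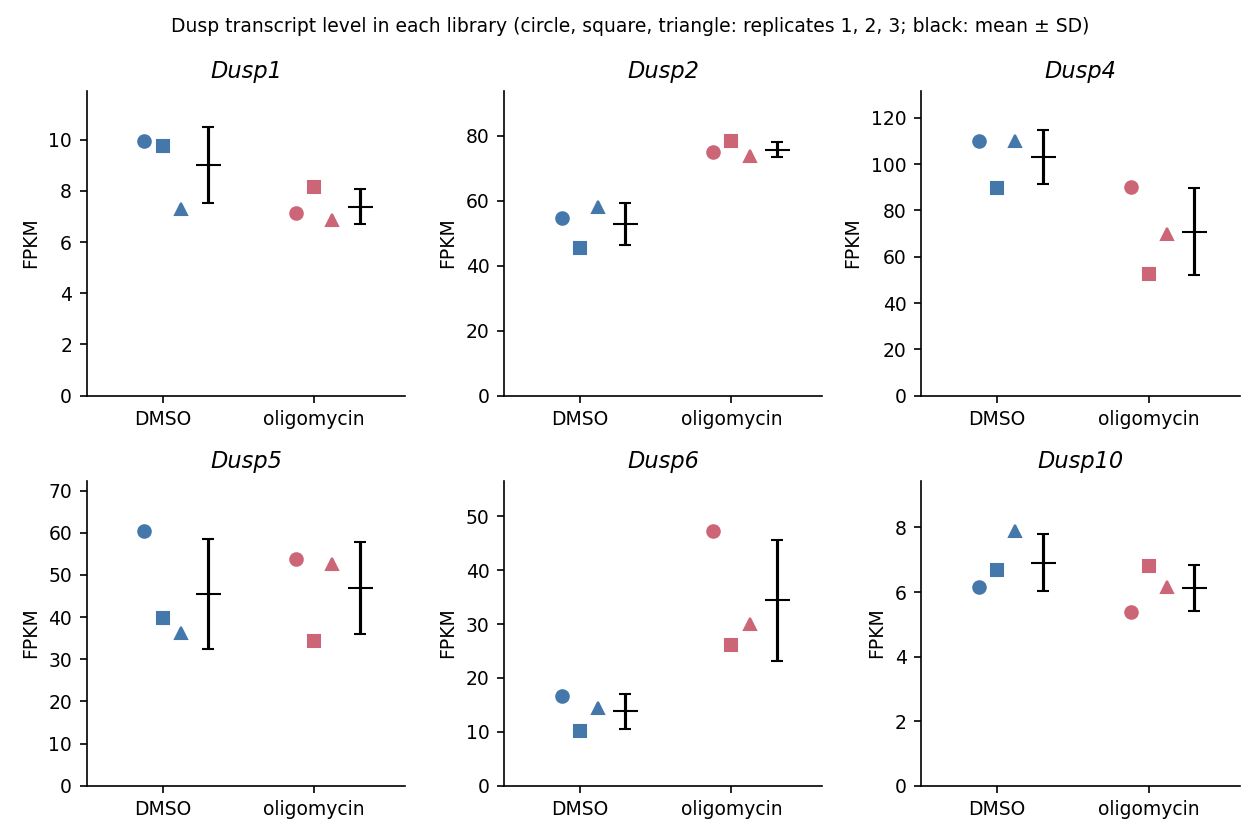
FPKM of the 6 phosphatase genes (vertical axes, each from 0) in the 3 DMSO and 3 oligomycin libraries. Symbols mark replicates 1, 2 and 3 and the black bars mean ± SD. The oligomycin libraries lie above all DMSO libraries for Dusp2 and Dusp6, while the groups overlap for the other genes.

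Dusp6 (XLOC_001685, chromosome 10, 99263231 to 99267489, GRCm38) encodes the cytosolic phosphatase that acts on ERK and not on JNK or p38. Its level was 16.6, 10.2 and 14.5 FPKM in DMSO replicates 1, 2 and 3, and 47.2, 26.0 and 30.0 FPKM in oligomycin replicates 1, 2 and 3. Every oligomycin library lay above every DMSO library, and oligomycin replicate 1 stood well above the other two. The group means were 13.8 ± 3.24 and 34.4 ± 11.3 FPKM (SD, n = 3 each). The log2 change was 1.24 (SE 0.24, 95% interval 0.70 to 1.78, adjusted p = 0.0062, limma), and 1.86% of all tested genes rose by more. Without this high library the change was 1.00 (adjusted p = 0.00858).

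Dusp2 (XLOC_011203, chromosome 2, 127336159 to 127338377) encodes a nuclear phosphatase known from activated lymphocytes. Its level was 54.9, 45.6 and 58.3 FPKM with DMSO and 75.2, 78.3 and 73.9 FPKM with oligomycin. The groups did not overlap, and the oligomycin libraries lay close together. The means were 52.9 ± 6.57 and 75.8 ± 2.27 FPKM (n = 3 each). The log2 change was 0.52 (SE 0.12, 95% interval 0.24 to 0.80, adjusted p = 0.0152, limma), and 13% of all tested genes rose by more. Without DMSO replicate 2, the lowest library, the change was 0.42 and was not called (adjusted p = 0.0584).

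The promoters of the 2 genes that rose are set beside those of Dusp1 and Dusp5, nuclear phosphatase genes that were not called, to show which elements known from signal-induced genes each one carries. They are the 250 bases before the RefSeq transcription start (GRCm38.p6), written 5′ to 3′ on the gene's strand, and capitals mark the matches described after them.
Dusp6 (chr10:99262981-99263230, plus strand): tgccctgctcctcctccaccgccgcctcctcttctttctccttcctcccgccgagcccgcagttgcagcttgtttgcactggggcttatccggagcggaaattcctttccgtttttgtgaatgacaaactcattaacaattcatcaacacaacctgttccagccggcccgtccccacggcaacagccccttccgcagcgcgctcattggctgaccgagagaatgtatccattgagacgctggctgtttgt
Dusp2 (chr2:127335909-127336158, plus strand): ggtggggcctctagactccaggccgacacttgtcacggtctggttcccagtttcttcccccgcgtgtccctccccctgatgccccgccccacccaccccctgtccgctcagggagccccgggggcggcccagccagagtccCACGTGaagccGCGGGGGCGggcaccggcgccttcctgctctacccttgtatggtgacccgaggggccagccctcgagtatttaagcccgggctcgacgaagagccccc
Dusp1 (chr17:26508473-26508722, minus strand): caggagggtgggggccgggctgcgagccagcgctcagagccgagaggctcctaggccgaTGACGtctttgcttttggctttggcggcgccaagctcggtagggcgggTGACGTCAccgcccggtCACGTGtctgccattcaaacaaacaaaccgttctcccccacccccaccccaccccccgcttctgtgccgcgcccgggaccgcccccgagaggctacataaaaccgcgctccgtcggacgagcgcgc
Dusp5 (chr19:53528895-53529144, plus strand): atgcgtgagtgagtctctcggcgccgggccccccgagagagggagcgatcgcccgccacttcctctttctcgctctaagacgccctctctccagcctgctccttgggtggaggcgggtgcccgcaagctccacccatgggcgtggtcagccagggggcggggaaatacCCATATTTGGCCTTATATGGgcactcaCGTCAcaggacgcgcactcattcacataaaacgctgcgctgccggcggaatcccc

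Windows were matched by symbol for 5 of the 6 genes. For Dusp1, Dusp2 and Dusp6 the RefSeq start coincided with that of the table's row, and for Dusp5 and Dusp10 it lay 173 and 80 bases before it. Both strands were searched for the cAMP response element (TGACGTCA) and its shorter core (TGACG, which also lies inside the full element). The AP-1 site (TGANTCA), the E-box (CACGTG) and the CArG box bound by serum response factor were searched as well. So were the EGR site (GCGNGGGCG) and a strict form of the ETS site (CCGGAA). Dusp1 held a full cAMP response element 143 to 136 bases before its start, a further core 191 to 187 bases before it, and an E-box at 126 to 121. Of 32851 RefSeq windows of this length, 1.55% held the full element and 17.8% the core. Dusp5 held a pair of adjoining CArG boxes, 82 to 73 and 72 to 63 bases before its start, an element found in 1.47% of windows, and a core at 55 to 51. Dusp2 held an E-box at 109 to 104 (6.02% of windows) and an EGR site at 98 to 90 (4.7% of windows). Dusp6, the gene with the larger rise, held no match to these 7 motifs in its window, and neither did Dusp10. AP-1 sites and the strict ETS form, present in 6.75% and 12% of windows, were found in none of the 5 windows. The shorter ETS core GGAA was not searched for, so these windows may hold other ETS sites. The 2 genes that rose thus had no searched motif in common. A match is a run of letters and not a measured binding site.

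Dusp4 (XLOC_019837, chromosome 8, 34807610 to 34819894) encodes a nuclear phosphatase of ERK, JNK and p38 that is closely related to DUSP1. Its level was 109.8, 89.6 and 109.8 FPKM with DMSO and 90.0, 52.6 and 69.7 FPKM with oligomycin. The groups touched, as oligomycin replicate 1 was level with DMSO replicate 2. The means were 103 ± 11.7 and 70.8 ± 18.8 FPKM (n = 3 each), with a log2 change of -0.56 (SE 0.19, 95% interval -1.0 to -0.12). Of all tested genes, 13.1% fell by more. The unadjusted p from limma was 0.0183 and the adjusted p 0.0568, so the gene was not called. Without oligomycin replicate 1 the change was -0.75 and the gene was called (adjusted p = 0.0117), and with all libraries it was also called under a robust variance prior (adjusted p = 0.0392). Other settings moved it the other way, to -0.37 without oligomycin replicate 2 (adjusted p = 0.128) and to -0.39 under quantile normalization (0.138). A replicate block by column number, chosen after the data were seen, also called the gene (adjusted p = 0.0163, limma).

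Dusp5 (XLOC_010170, chromosome 19, 53529318 to 53541322) encodes a nuclear phosphatase selective for ERK. It stood at 60.3, 39.8 and 36.2 FPKM with DMSO and at 53.8, 34.3 and 52.5 FPKM with oligomycin. The groups overlapped almost fully, around means of 45.5 ± 13.0 and 46.9 ± 10.9 FPKM (n = 3 each). The log2 change of 0.05 had a 95% interval from -0.47 to 0.57 (adjusted p = 0.88, limma), a range that includes the change of Dusp2. Its sign turned when DMSO replicate 2 or 3 was left out (-0.025 and -0.092) and when oligomycin replicate 1 or 3 was (-0.061 and -0.043). It reached 0.27 without DMSO replicate 1 and 0.26 without oligomycin replicate 2.

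Dusp1 (XLOC_008894, chromosome 17, 26505591 to 26508472), the founding member of the family and an immediate early gene, was expressed at a low level. It measured 9.93, 9.77 and 7.30 FPKM with DMSO and 7.15, 8.14 and 6.85 FPKM with oligomycin. The means were 9.0 ± 1.47 and 7.38 ± 0.676 FPKM (n = 3 each), with overlapping groups. The log2 change of -0.25 had a 95% interval from -0.58 to 0.09 (adjusted p = 0.229, limma). It was -0.16 when rescaled without small RNA rows and -0.38 without DMSO replicate 3.

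Dusp10 (XLOC_000600, chromosome 1, 184034461 to 184075636), whose product acts on JNK and p38, was the least abundant of the 6 in both groups. It measured 6.16, 6.67 and 7.88 FPKM with DMSO and 5.38, 6.80 and 6.17 FPKM with oligomycin, and the groups overlapped. The means were 6.90 ± 0.884 and 6.11 ± 0.710 FPKM (n = 3 each). The log2 change of -0.15 had a 95% interval from -0.47 to 0.17 (adjusted p = 0.437, limma). It was -0.06 without DMSO replicate 3 or when rescaled without small RNA rows, -0.07 without oligomycin replicate 1 and -0.22 without DMSO replicate 1 or oligomycin replicate 2.

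In an exact permutation test over the samples, 3 libraries against 3 cannot give a 2-sided p under 0.1. Dusp2 and Dusp6 reached this value, Dusp1 and Dusp4 gave 0.2, Dusp10 gave 0.5 and Dusp5 gave 1.

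The order of the levels differed between the groups at its top. With DMSO, Dusp4 led, followed by Dusp2, Dusp5, Dusp6, Dusp1 and Dusp10. The libraries of Dusp4 lay above all libraries of Dusp2, those of Dusp5 above those of Dusp6, and those of Dusp6 above those of Dusp1. Dusp2 and Dusp5 overlapped, as did Dusp1 and Dusp10. With oligomycin, the mean of Dusp2 was the highest, but its libraries overlapped those of Dusp4. Dusp4 overlapped Dusp5, and Dusp5 overlapped Dusp6, so that the first 4 genes formed a chain without a clear step. Dusp1 and Dusp10 remained far below them.

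Summed over the 6 genes and the other MAP kinase phosphatase genes of the table, Dusp7 and Dusp16, the level was 246 ± 29.3 FPKM with DMSO and 253 ± 38.2 FPKM with oligomycin (n = 3 each), and the groups overlapped. The makeup of this sum differed more than its size. Dusp4 made up 40.2%, 41.7% and 44.0% of it with DMSO and 30.8%, 24.3% and 27.8% with oligomycin. Dusp6 made up 6.08%, 4.76% and 5.81% with DMSO and 16.1%, 12.04% and 11.99% with oligomycin. The share of Dusp2 went from 21.6% ± 1.67 to 30.5% ± 5.33, while that of Dusp5 averaged 18.4% in both groups. None of the shares of Dusp2, Dusp4 and Dusp6 overlapped between the groups, and neither did that of Dusp16 (2.25% to 2.85% with DMSO, 1.32% to 1.83% with oligomycin). The shares of Dusp1, Dusp5, Dusp7 and Dusp10 overlapped. Among all tested genes, the levels of 47.3% did not overlap. Since the shares of a library add up to a whole, a higher share of one gene lowers those of the others.

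Grouped by the usual classes, the nuclear phosphatases (Dusp1, Dusp2, Dusp4 and Dusp5) held 85.6% ± 0.655 of the sum with DMSO and 79.5% ± 1.96 with oligomycin. The cytosolic ERK phosphatases (Dusp6 and Dusp7) held 9.08% ± 0.552 and 16.5% ± 2.19. The phosphatases that prefer JNK and p38 (Dusp10 and Dusp16) held 5.30% ± 0.175 and 3.99% ± 0.42. The shares of the 3 classes did not overlap between the groups (n = 3 each), while the levels of 47.3% of all tested genes did not overlap either. The classes were not uniform. The share of Dusp6 averaged 5.55% with DMSO and 13.4% with oligomycin, and that of Dusp7 3.53% and 3.11%. In the nuclear class the share of Dusp2 was higher and that of Dusp4 lower with oligomycin. Neither Dusp10 nor Dusp16 was called.

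Ratios within a library do not depend on the scaling between libraries. They were chosen after the values were seen and are given as a description. The ratio of Dusp6 to Dusp4 was 0.151, 0.114 and 0.132 with DMSO and 0.525, 0.495 and 0.431 with oligomycin, a mean 3.65-fold higher. Oligomycin replicate 1, which was the highest of its group in both genes, lay near the other libraries in this ratio. The ratio of Dusp2 to Dusp4 was 0.50, 0.509 and 0.531 with DMSO and 0.835, 1.49 and 1.06 with oligomycin, so the DMSO libraries were tight and the oligomycin libraries spread. The ratio of Dusp6 to Dusp7, both cytosolic ERK phosphatases, averaged 1.63 ± 0.476 with DMSO and 4.36 ± 1.09 with oligomycin, without overlap. The ratio of Dusp2 to Dusp5 overlapped between the groups (1.22 ± 0.356 and 1.70 ± 0.507).

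**Figure D2:**
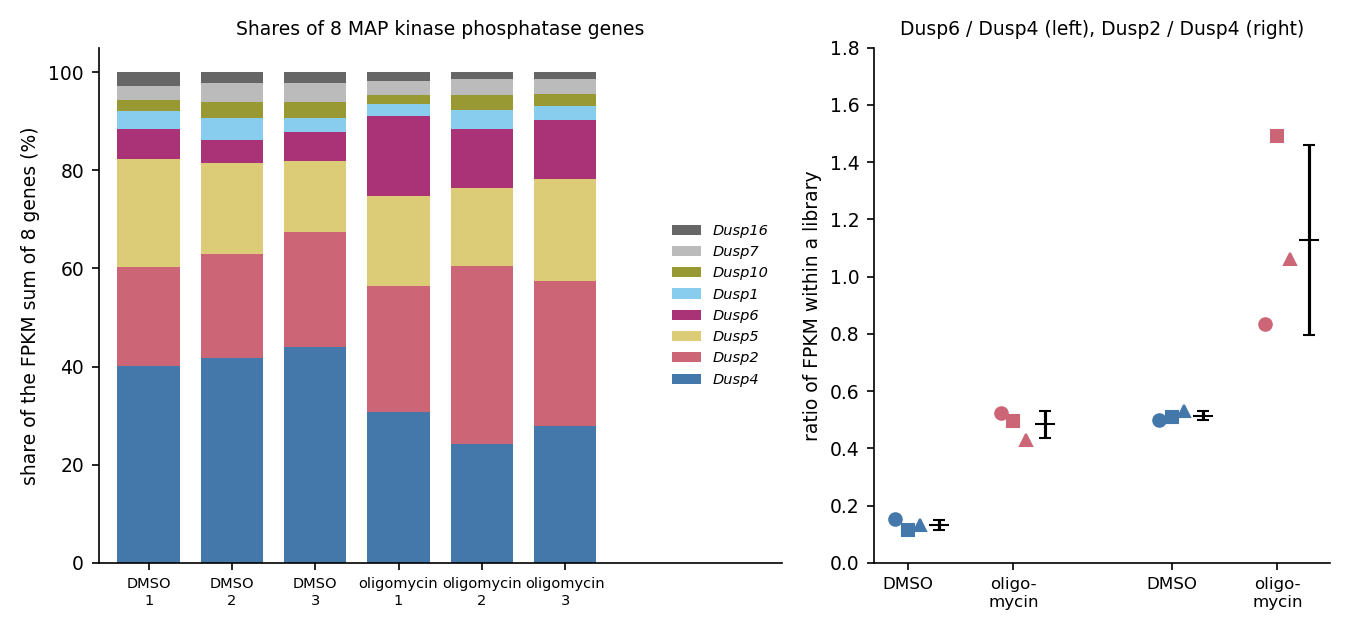
Left, share in percent of each of 8 MAP kinase phosphatase genes in their summed FPKM, 1 bar per library. Right, ratios of FPKM within a library (symbols for replicates 1, 2 and 3, black bars for mean ± SD). The Dusp4 block is smaller and the Dusp6 and Dusp2 blocks are larger in all 3 oligomycin libraries, and both ratios to Dusp4 are higher there.

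The libraries of a group did not spread evenly over the 8 genes. Oligomycin replicate 1 was the highest of its group for 5 of them (Dusp4, Dusp5, Dusp6, Dusp7 and Dusp16) and the lowest for Dusp10. Oligomycin replicate 2 was the lowest for those same 5 genes. The ratio of the highest to the lowest library reached 1.81 for Dusp6 and 1.87 for Dusp16 with oligomycin, and was 1.06 for Dusp2. In the DMSO group Dusp5 had the widest ratio, 1.67, and Dusp4 the narrowest, 1.23.

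Of the other classical MAP kinase phosphatases, Dusp7 and Dusp16 were in the table and neither was called, against 30.2% of all tested genes. Dusp7 measured 8.57 ± 1.01 FPKM with DMSO and 7.80 ± 0.608 FPKM with oligomycin, a log2 change of -0.12 (adjusted p = 0.505, limma). Dusp16, which like Dusp10 targets JNK and p38, measured 6.09 ± 1.51 FPKM with DMSO and 3.88 ± 1.31 FPKM with oligomycin, a log2 change of -0.55 (adjusted p = 0.093). Without oligomycin replicate 1, its change was -0.76 and it was called (adjusted p = 0.0251). Among 9 tested genes of atypical dual-specificity phosphatases, small enzymes that mostly lack the kinase-binding domain, and of the related slingshot phosphatases, 3 rose, 2 fell and 4 were not called, a called share of 55.6% against 30.2%. Dusp12 rose from 9.53 ± 0.728 to 16.5 ± 1.32 FPKM (adjusted p = 0.00272) and Dusp28 from 2.22 ± 0.628 to 5.69 ± 1.2 FPKM (adjusted p = 0.00605). Dusp19 fell from 15.4 ± 2.84 to 8.62 ± 1.08 FPKM (adjusted p = 0.00847), and Dusp22, whose product acts on proximal T cell receptor signalling, from 14.1 ± 1.96 to 8.91 ± 0.211 FPKM (adjusted p = 0.0104). Ssh2, which encodes an activator of the actin-severing protein cofilin, rose by 0.46 on the log2 scale. Leaving out DMSO replicate 1 or 3 ended its call (adjusted p = 0.125 and 0.108), as did leaving out oligomycin replicate 1 or 2 (0.0514 and 0.0859).

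**Figure D3:**
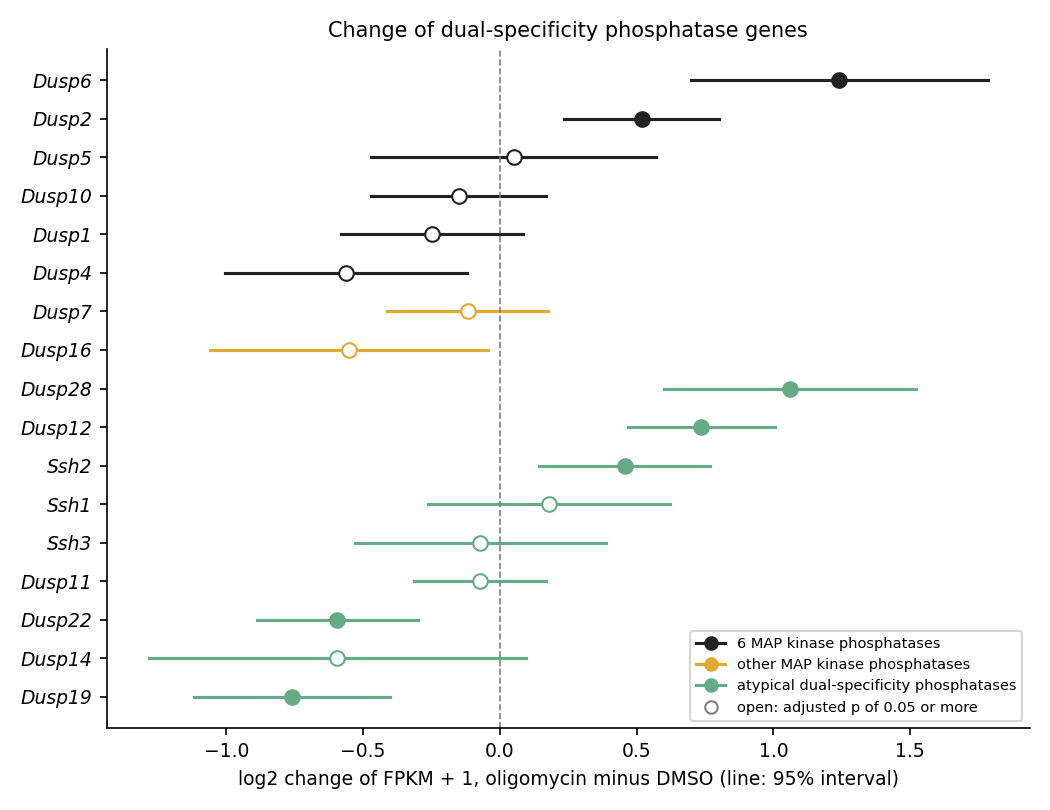
Log2 change of FPKM + 1, oligomycin minus DMSO, with its 95% interval from limma, for 17 dual-specificity phosphatase and slingshot genes grouped by class. Filled points passed an adjusted p of 0.05. Dusp6 and Dusp2 are the only filled points among the classical MAP kinase phosphatases, and the interval of Dusp4 lies below 0 although its adjusted p is 0.0568.

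The MAP kinases ERK, JNK and p38 are the substrates of these phosphatases. The list counted here was wider and also held Nlk and Mapk6. Of 9 tested MAP kinase genes, 0 rose, 1 fell and 8 were not called, a called share of 11.1% against the background of 30.2%, with a median log2 change of -0.12. Mapk3, which encodes ERK1, fell from 7.05 ± 0.907 to 4.60 ± 1.07 FPKM (adjusted p = 0.0432, limma). With 1 library dropped, the call held only in the fit lacking oligomycin replicate 1, and the others gave adjusted p from 0.0584 to 0.127. It was also lost with a minimum mean of 5 FPKM (0.0591) and when rescaled without small RNA rows (0.0573). Nlk and Mapk6, with log2 changes of 0.32 and -0.29, were not called, and Nlk was called when rescaled without small RNA rows (adjusted p = 0.0355).

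One step up, 1 of 7 MAP kinase kinase genes fell and 1 rose, 28.6% against the background of 30.2%. Map2k1, the gene of the ERK activator MEK1, fell from 75.5 ± 4.0 to 50.4 ± 4.79 FPKM (log2 change -0.58, adjusted p = 0.00753, limma). Its locus overlaps that of Uchl4, whose reads may be shared with it. Map2k3, the gene of a p38 activator, rose from 56.0 ± 5.22 to 82.9 ± 16.9 FPKM (adjusted p = 0.0363), a call that with 1 library dropped held only in the fit lacking oligomycin replicate 3 (0.0682 to 0.122 in the others). Map2k7, which activates JNK, was not called (log2 change 0.36, adjusted p = 0.0539), but was called under quantile normalization (0.0375), median-ratio scaling (0.0427), rescaling without small RNA rows (0.0273), a minimum mean of 5 FPKM (0.0494) or without oligomycin replicate 1 (0.0499).

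At the level of the MAP3 kinases, 3 of 14 genes rose and 2 fell, 35.7% against the background of 30.2%, with a median log2 change of 0.04. Map3k14, the gene of the kinase NIK of the alternative NF-κB pathway, rose from 8.04 ± 1.29 to 16.0 ± 2.87 FPKM (adjusted p = 0.00442, limma), and Map3k2 from 6.88 ± 0.475 to 11.5 ± 0.962 FPKM (adjusted p = 0.00469). Map3k8, whose product TPL2 activates MEK, fell from 26.6 ± 4.57 to 13.3 ± 5.05 FPKM (adjusted p = 0.0229), a call that ended when DMSO replicate 2 or 3 was dropped (0.0702 and 0.0537). Braf rose by 0.47 and Map3k10 fell by 0.40 on the log2 scale. With 1 library dropped, Braf was called only in the fit lacking oligomycin replicate 3 (0.0524 to 0.0941 in the others) and Map3k10 in no fit (0.0674 to 0.136). Map3k10 also missed the threshold when rescaled without small RNA rows (0.0913) and under a robust variance prior (0.0539).

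Among 15 tested genes around the Ras switch, 5 rose and 0 fell, and the median log2 change was 0.20. The called share of 33.3% is near the 30.2% of all tested genes. Rasa3, a GTPase-activating protein that turns Ras and Rap off, rose from 20.7 ± 2.85 to 70.9 ± 13.6 FPKM (log2 change 1.72, adjusted p = 0.000196, limma). Rasgrp1, the exchange factor that turns Ras on below the T cell receptor, rose from 12.9 ± 0.928 to 24.6 ± 6.50 FPKM (adjusted p = 0.00904). Rasgrp2, which acts mainly on Rap1, rose from 1.16 ± 0.188 to 5.84 ± 3.39 FPKM (adjusted p = 0.00781). Both activators and inhibitors of Ras were thus among the genes that rose. The other two, Sos2 and Rasa2, rose by 0.44 and 0.50 on the log2 scale. With 1 library dropped, Sos2 was called only in the fit lacking oligomycin replicate 2 (0.0515 to 0.0857 in the others). Rasa2 lost its call when DMSO replicate 2 or 3 was dropped (0.0832 and 0.0901) and when oligomycin replicate 1 or 3 was (0.0563 and 0.0676).

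Of 14 tested genes for kinases and transcription factors downstream of MAP kinases, 1 rose and 2 fell, 21.4% against the background of 30.2%. Elk4, a partner of serum response factor, rose from 25.1 ± 2.87 to 40.1 ± 3.64 FPKM (adjusted p = 0.00647, limma). Mapkapk2, the p38-activated kinase MK2, fell from 168 ± 13.0 to 120 ± 8.67 FPKM (adjusted p = 0.0195). Mapkapk2 missed the threshold under quantile normalization (0.0603), with DMSO replicate 2 or 3 dropped (0.0766 and 0.0678) and with oligomycin replicate 3 dropped (0.0641). Rps6ka3, which encodes the ERK-activated kinase RSK2, fell by 0.51 on the log2 scale, a call that with 1 library dropped held only in the fit lacking oligomycin replicate 1 (0.0513 to 0.133 in the others) and was lost when rescaled without small RNA rows (0.0656).

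Of 12 tested genes for other brakes on the pathway, 1 rose and 3 fell. Their called share of 33.3% is also near the 30.2% of all tested genes. Spry1, a Sprouty protein that like DUSP6 is induced by ERK and restrains it, stood at 13.6, 11.9 and 13.6 FPKM in the DMSO libraries and at 41.0, 28.7 and 28.8 FPKM in the oligomycin libraries. The rise, 1.25 on the log2 scale (SE 0.16, adjusted p = 0.000823, limma), was close in size to that of Dusp6, and oligomycin replicate 1 was again the highest library. Spred2, a relative of Sprouty that recruits the Ras inactivator neurofibromin, fell from 8.38 ± 1.22 to 4.17 ± 0.306 FPKM (adjusted p = 0.00288), and the adaptor gene Dok2 from 30.7 ± 3.17 to 17.4 ± 3.43 FPKM (adjusted p = 0.00652). Erf, an ERK-controlled repressor of ETS target genes, fell by 0.45. Dropping DMSO replicate 2 or 3 ended its call (0.138 and 0.131), as did dropping oligomycin replicate 2 or 3 (0.0699 and 0.137). It also missed the threshold when rescaled without small RNA rows (0.0613) and without an intensity trend (0.0523).

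Genes listed as early genes of ERK signalling, a class that includes several phosphatase genes, were counted in the same way. Whether ERK drove them in these cultures was not tested. Of 26 tested, 8 rose, 6 fell and 12 were not called, a called share of 53.8% against 30.2% of all tested genes. Their median log2 change was 0.19, and that of all tested genes was -0.0044. The 3 EGR genes of the list, which encode zinc finger factors induced through ERK, rose: Egr1 from 5.49 ± 0.546 to 10.5 ± 2.51 FPKM, Egr2 from 15.7 ± 3.42 to 32.2 ± 4.73 FPKM and Egr3 from 2.70 ± 0.740 to 5.69 ± 0.736 FPKM (adjusted p = 0.00904, 0.0042 and 0.00912, limma). Cd69, an early activation antigen, rose from 36.6 ± 1.08 to 103.9 ± 6.63 FPKM (adjusted p = 6.82e-05). Ier5, Btg2 and Zfp36 rose as well, by 0.90, 0.75 and 0.87 on the log2 scale.

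The AP-1 genes Fosl2, Junb and Jund fell, Fosl2 from 65.6 ± 7.71 to 24.5 ± 6.53 FPKM (adjusted p = 0.000947, limma), Junb from 453 ± 30.5 to 278 ± 15.3 FPKM and Jund from 102 ± 6.98 to 51.7 ± 2.76 FPKM. Ier3, which encodes a survival factor phosphorylated by ERK, fell from 33.7 ± 11.1 to 3.89 ± 0.354 FPKM (adjusted p = 0.000103), and Klf6 fell by 0.84 on the log2 scale. Fos and Jun, like Dusp1, were not called (log2 changes of 0.04 and 0.11). Fosl1 rose by 0.77 and Plaur fell by 1.31, but with 1 library dropped Fosl1 was called only in the fit lacking oligomycin replicate 2 (0.0529 to 0.103 in the others), and it missed the threshold with a pseudocount of 5 (0.0504). Its locus overlaps that of Ccdc85b. Plaur lost its call when DMSO replicate 1 or 2 was dropped (0.0909 and 0.0747), when oligomycin replicate 2 or 3 was (0.0547 and 0.114), and under a robust variance prior (0.0575).

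**Figure D4:**
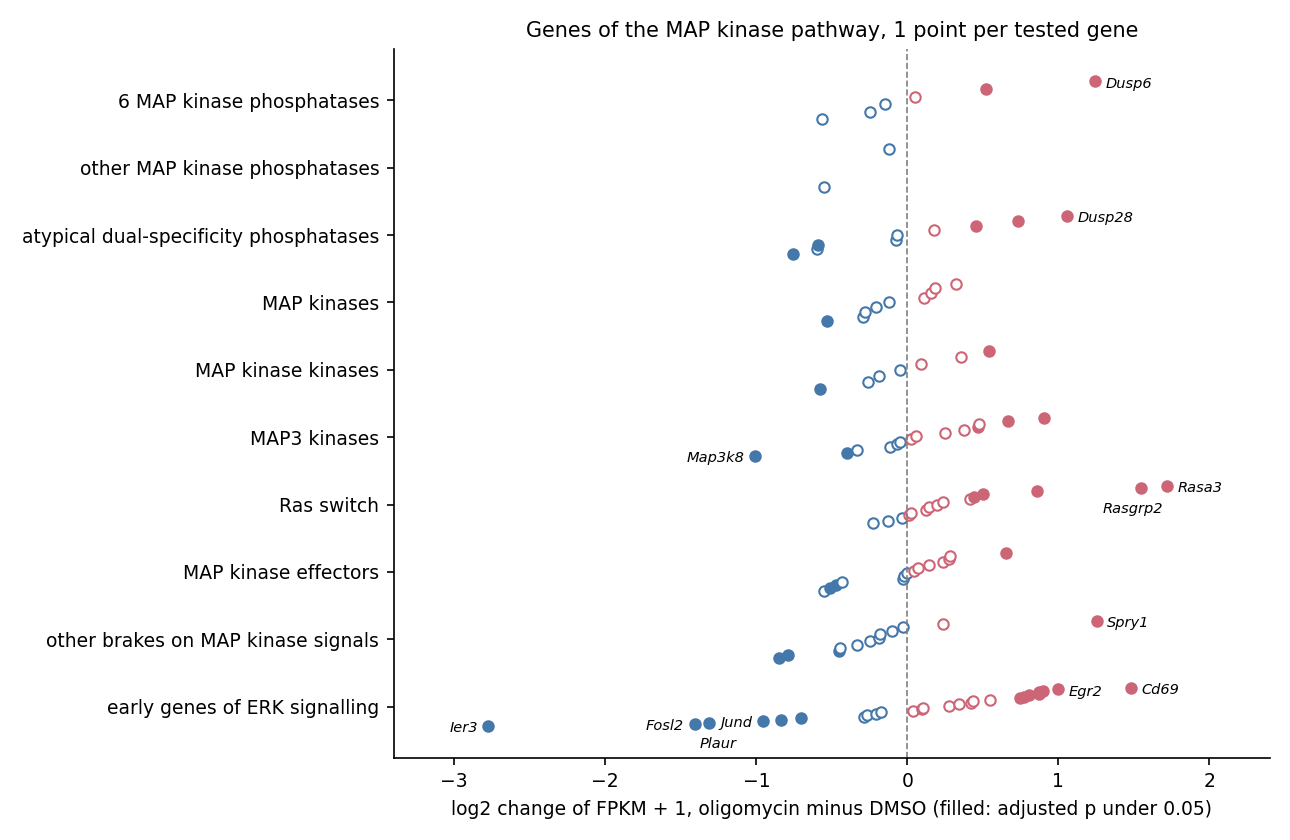
Log2 change of FPKM + 1, oligomycin minus DMSO, with 1 point per tested gene of each pathway list. Filled points passed an adjusted p of 0.05 and larger changes are named. Dusp6 and Spry1 stand apart on the right of their lists, and the early genes reach from Ier3 at -2.77 to Cd69 at 1.48.

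Over the 6 libraries, the level pattern of each phosphatase gene was compared with 7705 other genes of at least 5 FPKM. Pearson's r of log2 levels serves as a description, since the 6 libraries share the group difference. The genes named were also picked as the most alike of 7705 over only 6 libraries. High r values therefore follow in part from the choice, and so do calls that change with the same library. Dusp6 was most like Bcl2a1b (r = 0.993), a survival gene with near-identical copies among which reads may be split, and Kctd13 (r = 0.991). Kctd13 rose by 0.68, and Bcl2a1b rose by 0.60, a call lost when DMSO replicate 2 or 3 was dropped (adjusted p = 0.0596 and 0.0605, limma). Dusp2 was most like 2700089E24Rik and D19Ertd386e (r = 0.994 and 0.993). The former rose by 0.52 and lost its call when DMSO replicate 2 was dropped (adjusted p = 0.0578, limma). The latter was not called (log2 change 0.19). Dusp4 was most like Hnrnpab (r = 0.995), an RNA-binding protein gene, and Suz12 (r = 0.994), a Polycomb gene. Hnrnpab had a log2 change of -0.58 and was called only without oligomycin replicate 1 among the fits lacking 1 library (-0.76, adjusted p = 0.0226, limma). Its locus overlaps that of Agxt2l2. Suz12 fell by 0.52, but with 1 library dropped was called only in the fit lacking oligomycin replicate 1 (0.0554 to 0.121 in the others), and was not called under quantile normalization (0.0691) or when rescaled without small RNA rows (0.0805). The nearest genes of Dusp5 were Ndufa13 and Eif3m (r = 0.993 and 0.969), those of Dusp1 Ing1 and Nek1 (r = 0.972 and 0.962) and those of Dusp10 Rps6kb1 and Asb7 (r = 0.969 and 0.968), none of which was called. Of these, Ndufa13 and Rps6kb1 overlap the loci of Tssk6 and Rnft1.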

How the data were processed

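Expression was measured by RNA-seq in 3 DMSO and 3 oligomycin libraries of mouse Th17 cultures. The authors deposited FPKM, 1 value per gene and library. The submitters' processing notes list Cuffdiff 2.2.1.3, Cuffnorm 2.2.1.1, Cufflinks 2.2.1.0 and TopHat2 2.1.0, and build GRCm38. How libraries were scaled, filtered and counted by strand, and with which annotation, is not given in the sources used here. Depth is unknown, since low values showed no common step from which reads could be recovered. Column names give the group and a number, which is the replicate number used here. The titles' own numbers (17, 42 and 43), each used for 1 DMSO and 1 oligomycin sample, are in no column.

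The test was limma 3.58.1 in R 4.3.3, fitted to log2(FPKM + 1) with an intensity trend and the group alone. Genes with at least 1 FPKM in at least 3 of 6 libraries were tested (9986 of 10041), and p-values are 2-sided and Benjamini-Hochberg adjusted over all of them. The pseudocount understates changes of low genes. Fold values are ratios of mean FPKM. The procedure was checked on simulated data. Table starts count from 0 and are printed from 1.

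The phosphatase genes and pathway lists were chosen with earlier results of these data known. By rule, the text names the 6 genes, Dusp7 and Dusp16, the 3 genes of smallest p in each list and the 2 genes most like each phosphatase gene by r. Other list genes (among them Dusp22, Ssh2, Braf, Map3k10, Sos2, Rasa2, Erf, Ier5, Btg2, Zfp36, Fosl1, Fosl2, Junb, Klf6, Plaur, Fos, Jun and the EGR genes) and the marker genes were named after their values were seen. Alternatives changed the pseudocount, filter, scaling and variance prior, or left out 1 library, and a replicate block was added later.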

Additional observations from a re-analysis of the deposited data

How the results depend on the processing

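Over 15 alternatives, Dusp6 kept its call and direction throughout (log2 change 1.00 to 1.41, adjusted p from 0.00359 to 0.0194 by limma). Dusp2 kept its call in 14, with values from 0.42 to 0.67. Leaving out 1 library moved its value between 0.42 and 0.59. Dusp4 was called in 2, under a robust variance prior (-0.56) and without oligomycin replicate 1, and leaving out 1 library gave values from -0.75 to -0.37. Dusp5 ran from -0.092 to 0.27 when 1 library was left out, and Ndufa13 from -0.031 to 0.18. Dusp1 and Dusp10 were called in none and kept their sign in all 15. The count of called phosphatase genes lay between 1 and 3 without 1 library. That of all genes lay between 1769 and 3248, against 3013 in the main fit. It was 1769 without DMSO replicate 3, 1887 without DMSO replicate 1 and 3248 without oligomycin replicate 1. Of 39 called genes of the pathway lists, 26 stayed called without any 1 library. The cause of these differences was not tested. A fit without a library has fewer samples, yet the highest count of called genes came from such a fit. Rescaling without small RNA rows moved the median of all tested genes to 0.09. A replicate block by the column numbers 1 to 3 was chosen after seeing the data, since the titles' numbers (17, 42 and 43) are in no column. Same-numbered libraries deviated from their group means with correlations of 0.056, 0.247 and 0.132 across genes, and 5 of 6 libraries correlated best with their own number. DMSO replicate 3 and oligomycin replicate 1 reached 0.117. Deviations from a group mean cancel within the group, so these correlations are not independent and the count cannot decide on pairing. The titles use each of their numbers for 1 DMSO and 1 oligomycin sample, so the groups may be matched. As no label ties a column to a title's number, the main fit left pairing out. The block called 3532 genes and 3 phosphatase genes, Dusp4 among them (-0.56, adjusted p = 0.0163), and also Dusp16 (0.0155), Map2k7 (0.0439) and Hnrnpab (0.0199), while Erf was lost (0.0508). Unknown depth allows no counting error for the low genes, such as Dusp10.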
